A study of Mus musculus with 2 samples.

Results

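Car4-high capillary endothelial cells, also called aerocytes, were taken from both libraries of the series by a rule on raw counts of unique molecular identifiers (UMIs, 1 per captured RNA molecule). Barcodes with fewer than 500 genes or with 10% or more mitochondrial UMIs were dropped. A barcode counted as endothelial with at least 8 UMIs summed over Pecam1, Cdh5, Cldn5, Egfl7, Ramp2 and Esam and at most 2 summed over Epcam, Col1a2 and Ptprc. It was Car4-high with at least 5 UMIs summed over Car4, Ednrb, Fibin and Apln and with more of these than of Plvap, Gpihbp1 and Aplnr. The rule took 146 cells, 82 from the control and 64 from the mutant library, of 1108 endothelial cells, 8559 barcodes that passed the first limits and 9012 barcodes in all. Plvap-high cells, taken for the other capillary type, had at least 5 UMIs of Plvap, Gpihbp1 and Aplnr and more of these than of the Car4 panel. They numbered 438 and 358. Arterial and venous genes were not read, so cells of larger vessels can be among them. The remaining endothelial cells numbered 95 and 71.

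Lung cells of mice at postnatal day 10 had been sorted by FACS for 4 lineages, endothelium among them, and captured on a droplet platform that reads the 3′ ends of RNAs. There was 1 control and 1 mutant library. The title of the control names Nkx2-1, and that of the mutant names 2 genes, Nkx2-1 and Aqp5. Nkx2-1 is a transcription factor of lung epithelial cells, and Aqp5 is an aquaporin of alveolar type 1 (AT1) cells. The labels do not state the alleles, what drives any recombination and in which cells, the control's own genotype, the strain or how many animals were pooled. The title of the series places the study in AT1 cell development and maintenance, so the capillary cells here are neighbours of the cells the study was about. With 1 library per genotype there was no replicate check. Every interval below is an exact 95% interval that covers counting error only, and no p-value is given.

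Alveolar capillaries hold 2 kinds of endothelial cell. Aerocytes are large, thin cells that lie against AT1 cells at the gas exchange surface and carry the membrane-bound carbonic anhydrase Car4, which interconverts carbon dioxide and bicarbonate. General capillary cells, sought here as Plvap-high cells, are the kind known to divide and to give rise to aerocytes. Vegfa from AT1 cells, received through the receptor Kdr, is known to be needed for aerocytes to form. Of the other genes of the rule, Ednrb encodes the endothelin B receptor, Fibin a secreted protein, and Apln the ligand of the receptor Aplnr of the other capillary type.

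Control Car4-high cells had a median depth of 4674 UMIs over 2003.5 genes, and mutant ones of 5866 UMIs over 2438 genes. Over all barcodes the medians were 5943 and 8305 UMIs. Summed, the cells held 431740 and 443262 UMIs. The libraries shared 27 barcode sequences. No control and 2 mutant Car4-high cells were among them, and none was Car4-high in both libraries. A doublet score from simulated pairs marked 1 control and no mutant Car4-high cell.

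One mutant barcode stood apart, and values without it are given beside the results it moves. It held 18992 UMIs, the most of any Car4-high cell, with 54 UMIs of Vwf, 55 of Fbln5, 50 of Mgp and 15 of Gja5, which are genes of larger vessels, and 96 of the neutrophil gene S100a8. It had 1 UMI of Car4, 6 of Ednrb and 8 of Apln. The next highest sum of Vwf, Fbln5 and Mgp in a mutant Car4-high cell was 2. This barcode held all mutant UMIs of Vwf and 98% of those of Mgp.

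The 4 genes that defined the cells lie on 4 chromosomes. Car4 is at chr11:84957786-84966044, plus strand, ENSMUSG00000000805. Ednrb is at chr14:103814625-103844402, minus strand, ENSMUSG00000022122. Fibin is at chr2:110360917-110363183, minus strand, ENSMUSG00000074971, and Apln at chrX:48025146-48034853, minus strand, ENSMUSG00000037010 (GRCm38, GENCODE M21). Their promoter windows, from 250 bases before to 50 after the RefSeq start site on GRCm38, are printed because these genes were read together to find the cells. Lines run 5′ to 3′ along each gene's own strand, and capitals mark 3 words searched on both strands. CGGAA and AGGAAG are words that ETS factors bind, GGTGTG is a word that T-box factors bind, and neither ETS word contains the other.
Car4 promoter, chr11:84957504-84957803, plus strand: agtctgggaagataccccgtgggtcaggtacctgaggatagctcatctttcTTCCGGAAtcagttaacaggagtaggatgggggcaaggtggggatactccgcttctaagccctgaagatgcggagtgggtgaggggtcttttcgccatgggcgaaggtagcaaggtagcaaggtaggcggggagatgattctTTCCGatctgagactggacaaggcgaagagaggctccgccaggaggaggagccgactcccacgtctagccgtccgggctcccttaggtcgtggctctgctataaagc
Ednrb promoter, chr14:103843652-103843951, minus strand: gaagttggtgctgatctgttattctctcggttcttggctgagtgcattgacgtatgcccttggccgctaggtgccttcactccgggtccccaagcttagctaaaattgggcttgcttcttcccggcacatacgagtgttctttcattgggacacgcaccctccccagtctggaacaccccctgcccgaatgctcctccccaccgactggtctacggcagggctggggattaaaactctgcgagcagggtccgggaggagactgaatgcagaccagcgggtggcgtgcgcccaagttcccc
Fibin promoter, chr2:110362944-110363243, minus strand: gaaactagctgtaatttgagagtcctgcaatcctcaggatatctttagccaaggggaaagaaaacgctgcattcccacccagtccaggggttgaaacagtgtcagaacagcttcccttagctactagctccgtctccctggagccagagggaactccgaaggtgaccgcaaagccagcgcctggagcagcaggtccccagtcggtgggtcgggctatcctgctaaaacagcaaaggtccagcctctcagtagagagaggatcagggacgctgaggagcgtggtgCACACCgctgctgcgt
Apln promoter, chrX:48034804-48035103, minus strand: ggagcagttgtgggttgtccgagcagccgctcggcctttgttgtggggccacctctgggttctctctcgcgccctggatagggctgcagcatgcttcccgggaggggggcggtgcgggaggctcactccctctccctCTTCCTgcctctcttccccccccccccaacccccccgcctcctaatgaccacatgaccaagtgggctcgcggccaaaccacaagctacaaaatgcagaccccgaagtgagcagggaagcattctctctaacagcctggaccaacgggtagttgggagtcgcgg

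The Car4 window held CGGAA 3 times, where the stretch TTCCGGAA counts on both strands. The Apln window held AGGAAG once and the Fibin window GGTGTG once, each read on the opposite strand. The Ednrb window held none of the 3 words. Among all 32851 RefSeq windows of the same length, 29.9% held CGGAA, 35.4% AGGAAG and 19% GGTGTG. A match shows that the letters are there, not that a factor binds.

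Car4 made up most of the panel count in a cell. Car4 UMIs per cell ran from 1 to 35 with a median of 9.5 in the control and from 0 to 21 with a median of 9 in the mutant. Apln had a median of 3 and a highest value of 13 in the control, and 2 and 10 in the mutant. Ednrb had a median of 1 in both libraries, with highest values of 9 and 10. Fibin, the sparsest, had medians of 0 and 1 and was seen in 34 of 82 control and 33 of 64 mutant cells. All 4 genes were present in 25 control and 28 mutant cells, and only 1 of them in 6 and 5. Car4 alone was the highest of the 4 in 71 control and 52 mutant cells, and Apln in 8 and 6. Thinned at random to 2000 UMIs per cell, Car4 was in 96.3% (89.7 to 99.2) of control and 85.9% (75 to 93.4) of mutant cells, and in 0.0953% and 0.103% of mesenchymal cells, with median depths of 6123 and 5489.5 UMIs. In immune cells it was in 8.20% and 9.89%, with median depths of 5492.5 and 5527 UMIs. After thinning, Fibin was in 26.8% and 28.1% of Car4-high cells and in 33.3% and 24.6% of mesenchymal cells. Ednrb was in 3.43% and 4.02% of mesenchymal cells, and Apln in 0.381% and 0.103%. These counts chose the cells, so they describe the choice.

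Few cells lay at the limit. At exactly 5 panel UMIs there were 5 control and 2 mutant cells inside the rule, and at 4 UMIs 3 and 1 just outside it. A further 12 control and 19 mutant cells had at least 5 panel UMIs but as many or more Plvap panel UMIs. They were deep, with median depths of 6342.5 and 7269 UMIs.

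**Figure D1:**
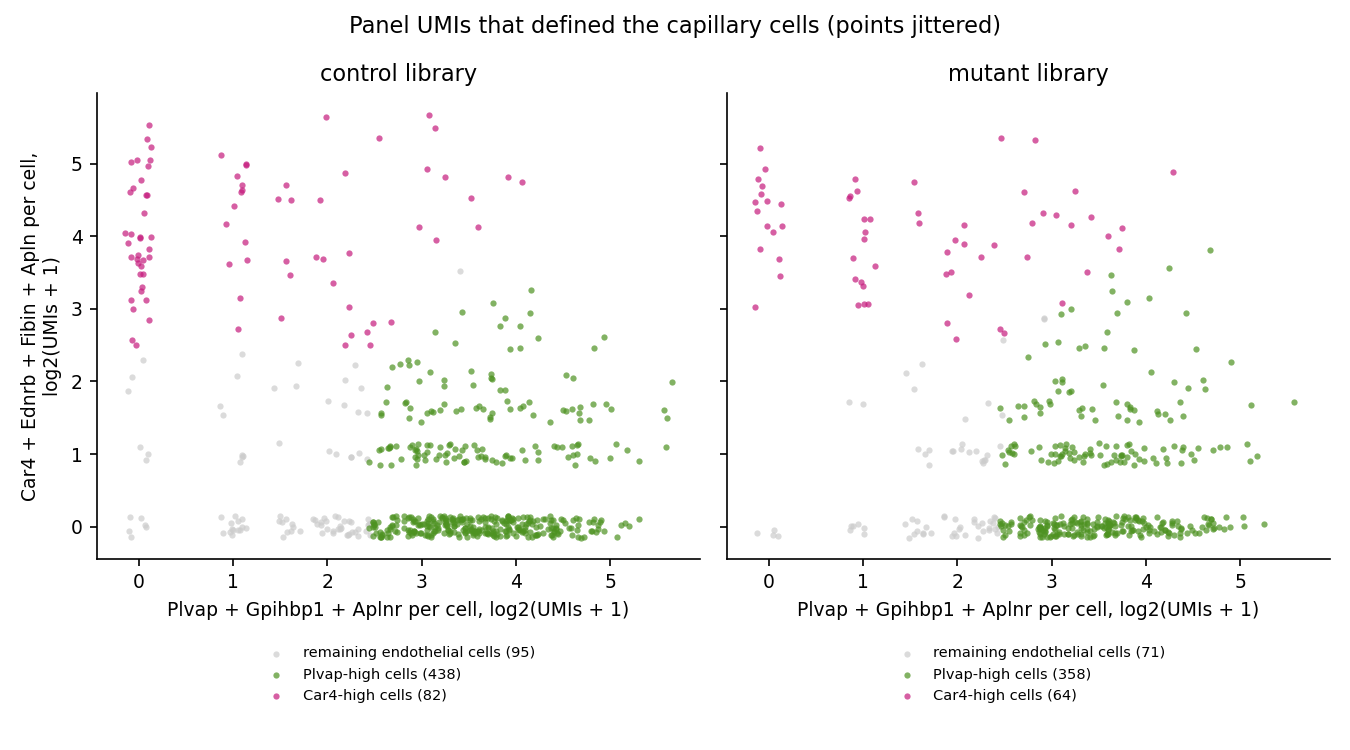
Each point is 1 endothelial cell, placed by its UMIs of Plvap, Gpihbp1 and Aplnr (x axis) and of Car4, Ednrb, Fibin and Apln (y axis), both as log2(UMIs + 1) with a small jitter, for each library. The 82 control and 64 mutant Car4-high cells all have more Car4 panel than Plvap panel UMIs, and a minority carry 5 or more UMIs of both panels.

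Genes outside the rule marked the same cells. The list of other aerocyte genes held 24 genes, among them the transcription factor gene Tbx2 and the membrane protein gene Emp2. It was chosen with earlier results of these data known, so its counts in these cells are a description. After thinning, a Car4-high cell held UMIs of a median of 14 of the 24 in each library, with a range of 8 to 19 in the control and 7 to 19 in the mutant. Plvap-high cells held a median of 7. Tbx2 UMIs were found, before thinning, in 71 of 82 control and 59 of 64 mutant cells, with a median of 2 and 3.5 UMIs per cell. After thinning they were in 67.1% (55.8 to 77.1) of control and 65.6% (52.7 to 77.1) of mutant cells, and in 0.440% and 0.146% of epithelial cells, whose median depths were 8552.5 and 12536 UMIs. Mesenchymal cells, which hold Tbx2 RNA of their own, had it in 35.2% and 36%. Endothelial cells clustered without the 7 panel genes and without cell cycle genes gave 10 clusters, and 73 of 82 control and 56 of 64 mutant Car4-high cells fell in 1 of them. That cluster held 84 control and 67 mutant cells. Most Car4-high cells thus fell together without the panel genes. The barcode above fell in a cluster led by Mgp, Cytl1 and Gja5. A cluster led by S100a9 and S100a8 held 2 control and 2 mutant Car4-high cells, and 1 led by Ager held 1 control cell. Clusters led by Wif1 and by Hbb-bs, with median Plvap panel counts of 10, held 4 control and 3 mutant cells. A cluster led by Top2a held 1 of each library, 1 led by Ung held 1 mutant and 1 led by Ccl21a 1 control cell.

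Across Car4-high cells the panel genes went together unevenly. On thinned counts, Spearman's rho of Car4 with Fibin was 0.42 over 82 control and 0.02 over 64 mutant cells, and that of Car4 with Igfbp7, an aerocyte gene outside the panel, 0.47 and 0.41. Car4 with Apln gave 0.04 and 0.06. Ednrb and Fibin gave 0.31 and 0.32. The panel sum went with the sum of the other aerocyte genes at 0.59 and 0.48, and with that of the other general capillary genes at 0.39 and 0.13. Those 2 sums went together at 0.53 and 0.20. The panel sum went with the total depth of the cell at -0.36 and -0.26 even after thinning, and the sum of the other aerocyte genes at -0.43 and -0.30. The rule chose the cells by the panel sum and its comparison with the Plvap panel, which can shape the values with panel genes. Cells of 1 library also share that library, so all these values only describe them.

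Car4-high cells differed in their Plvap panel count, which the rule also read. It was at 0 in 37 of 82 control cells, 45.1% (34.1 to 56.5), and in 16 of 64 mutant cells, 25% (15 to 37.4). The count was 5 UMIs or more in 13 and 17 cells. On thinned counts the shares at 0 were 59.8% (48.3 to 70.4) and 51.6% (38.7 to 64.2), which overlap. Cells at 0 had median depths of 3712 and 5267 UMIs, and cells with 5 or more had 8057 and 9257.

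Igfbp7 and Emp2, aerocyte genes that the rule did not read, were highest in the cells without Plvap panel UMIs. Expression is given as CPM, the UMIs of a gene summed over a group of cells per 1000000 UMIs of that group. Igfbp7, which encodes a secreted IGF-binding protein, had 7658 CPM in the control cells at 0, 6450.3 in those with 1 to 4 and 4817 in those with 5 or more. In the mutant the 3 values were 8050.4, 4129 and 3009. Emp2 went from 2823 to 1140.0 CPM between the ends of this range in the control and from 2449 to 1178 in the mutant. Cd93, a surface receptor gene more abundant in Plvap-high cells, ran the other way, from 67.5 to 368 and from 47.8 to 740.0 CPM. Depth moved with this order too, and whether cells in between or barcodes that hold RNA of both types give it was not tested.

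**Figure D2:**
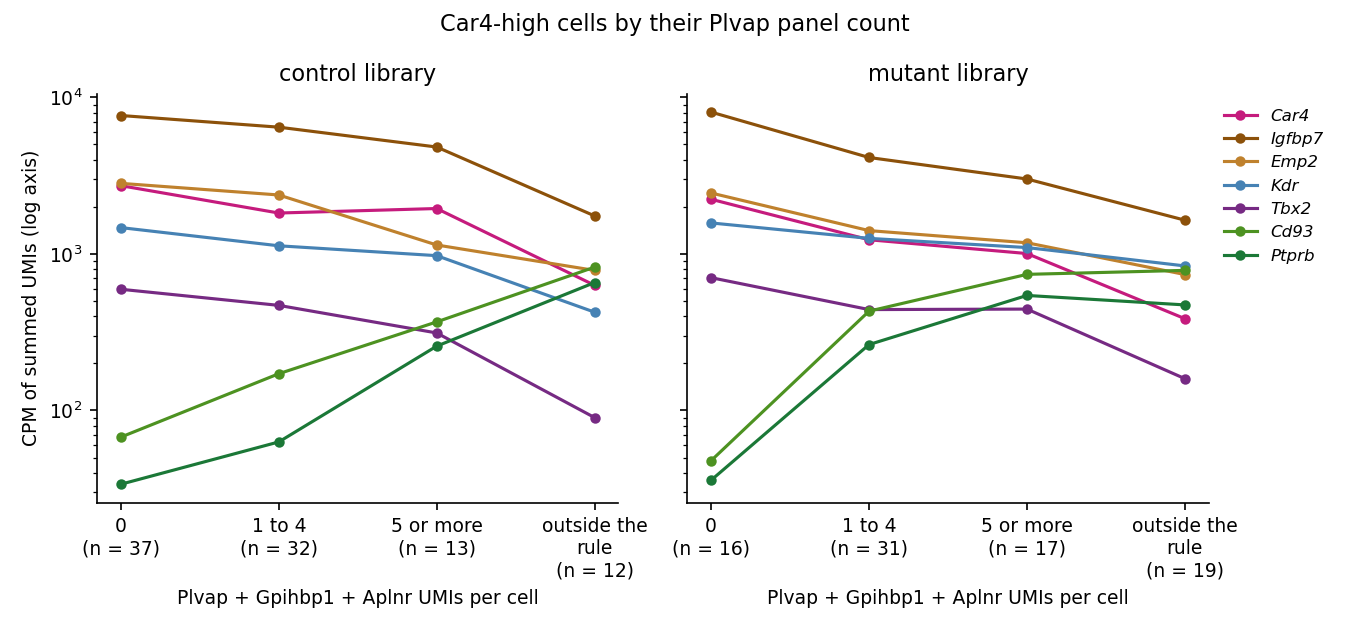
CPM of summed UMIs (y axis, log scale) for 7 genes in Car4-high cells grouped by their UMIs of Plvap, Gpihbp1 and Aplnr (x axis), for each library, with cells that had 5 or more Car4 panel UMIs but failed the comparison at the right. Igfbp7 and Emp2 are lower and Cd93 and Ptprb higher in the groups with more Plvap panel UMIs, for example Ptprb at 33.8 and 257 CPM in the control.

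The share of Car4-high cells was close in both libraries. They made up 13.3% (10.7 to 16.3) of endothelial cells in the control and 13% (10.1 to 16.3) in the mutant. Of Car4-high and Plvap-high cells together they made up 15.8% (12.7 to 19.2) and 15.2% (11.9 to 18.9). With the rule, at lower limits, applied to thinned counts the shares were 13.1% (10.6 to 16) and 13.2% (10.4 to 16.5), and by the cluster made without panel genes they were 13.7% (11 to 16.6) and 13.6% (10.7 to 16.9). The cells had been sorted, so these are shares of sorted endothelial cells, not of the lung. Some clusters with a high Plvap panel count split by library, with 314 control and 36 mutant endothelial cells in one and 20 and 176 in another. Others, with median Plvap panel counts of 9, 12 and 10, held 41 and 63, 25 and 53, and 32 and 42 cells. Most Car4-high cells of both libraries shared 1 cluster.

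A smaller share of Car4-high than of Plvap-high cells carried RNA of dividing cells. With at least 3 UMIs over 39 genes of the G2 and M phases after thinning, 4.88% (1.34 to 12) of control and 10.9% (4.51 to 21.2) of mutant Car4-high cells counted as cycling. Among Plvap-high cells it was 18.5% (15 to 22.5) and 29.9% (25.2 to 34.9). Unthinned, the shares of Car4-high cells were 25.6% (16.6 to 36.4) and 34.4% (22.9 to 47.3), against 37.9% and 56.7% of Plvap-high cells. In mesenchymal cells the thinned share was 6.86% and 9.28%, and in immune cells 23.8% and 24.2%, which include any free RNA of cycling cells. Median depths were 4674 and 5866 UMIs in Car4-high, 4656 and 5325 in Plvap-high, 6123 and 5489.5 in mesenchymal, and 5492.5 and 5527 in immune cells. The share of cycling Car4-high cells in the mutant was above that in the control in each count, and the intervals of the libraries overlapped.

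Against Plvap-high cells, Tbx2, Itgb5, Chst1 and Chst2 were higher and Kit, Tek and Prss23 lower in Car4-high cells of both libraries. The rule chose the cells on this contrast, so the values are given as a description. Of 8431 genes that reached 20 UMIs in both libraries, 234 (2.78%) were at least 2-fold higher and 446 (5.29%) at least 2-fold lower in Car4-high cells in both libraries. Tbx2 had 473 CPM in control Car4-high and 20.5 in Plvap-high cells, and 492 and 19.6 in the mutant. That is 23.1-fold and 25-fold, and both libraries stood close together. Of 44 transcription factor genes listed, 38 were tested and 4 were higher in both libraries: Tbx2, its relative Tbx3, Meox1 and Prdm1, the last with 10.4-fold in the control and 6.43-fold in the mutant. Nr2f2, Gata6, Foxp1 and Foxo1 were lower in both.

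Of 22 basement membrane and matrix genes tested, 3 were higher in both libraries, Itga3, Itgb5 and Igfbp7, beside 2.78% over all genes. The 6 lower in both were Sparcl1, Col15a1, Col18a1, Itga1, Itga5 and Itga6, beside 5.29% over all genes. The median log2 ratios of the list were -0.54 and -0.29. Itgb5, the integrin beta 5 subunit gene, was 82.3-fold and 20.9-fold higher, at 183 and 117 CPM against 2.22 and 5.61. The carbohydrate sulfotransferase genes Chst1 and Chst2 were 32.2-fold and 53.8-fold higher in the control and 20.1-fold and 18.3-fold in the mutant. Sirpa, the receptor of Cd47, was 31.2-fold and 13.9-fold higher. Control Plvap-high cells were near 0 for these genes, so the control ratios rest on 5 to 14 UMIs for Itgb5, Chst2 and Sirpa. Igfbp7, a secreted protein gene, stood at 6453 and 4460.1 CPM in Car4-high cells, 9.55-fold and 8.84-fold over Plvap-high cells.

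Of the 24 other aerocyte genes, 22 were tested. In both libraries 17 were at least 2-fold higher and none lower, beside 2.78% higher and 5.29% lower over all genes. The median log2 ratio was 2.33 in the control and 1.83 in the mutant, against -0.05 and -0.05 over all genes. Kdr, the main Vegfa receptor gene, was 4.93-fold and 3.44-fold higher. Kitl, which encodes the ligand of the receptor Kit, was 5.36-fold and 4.87-fold higher, while Kit itself was 3.19-fold and 2.61-fold lower. Hpgd, which breaks down prostaglandins, did not follow the list, at 0.893-fold and 1.21-fold, and neither did Nckap5 at 0.739-fold and 0.664-fold. Scnn1a, the sodium channel subunit, had no UMI in Car4-high cells of either library.

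Of 22 other general capillary genes, 21 were tested, with 11 lower and 3 higher in both libraries, beside 5.29% lower and 2.78% higher over all genes. Tek, the angiopoietin receptor gene, was 3.16-fold and 2.48-fold lower, and Ptprb, a phosphatase of endothelial junctions, 4.97-fold and 2.07-fold. The 3 that went against the list were Ly6a at 6.02-fold and 2.32-fold, Ly6c1 at 4.50-fold and 2.56-fold, and Clec1a at 2.21-fold and 2.38-fold higher. Prss23, a protease gene of veins, was 16.4-fold and 8.24-fold lower, and the gap junction gene Gja4 9.06-fold and 3.65-fold. Of 11 venous genes tested 8 were lower in both libraries, and of 15 arterial genes 5, beside 5.29% over all genes. Plvap-high cells were not cleared of venous and arterial cells. A cluster led by Fabp4, Slc6a2 and Car8, with 32 control and 42 mutant cells, had a median Plvap panel count of 10. The part of such cells in these ratios was not tested. Wif1, which encodes an inhibitor of Wnt signals, was 6.05-fold and 4.94-fold lower. Most tested genes of the G2 and M phases were lower, 29 of 35, and 17 of 30 of S phase, beside the same 5.29% over all genes. Top2a was 4.94-fold and 5.32-fold lower.

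**Figure D3:**
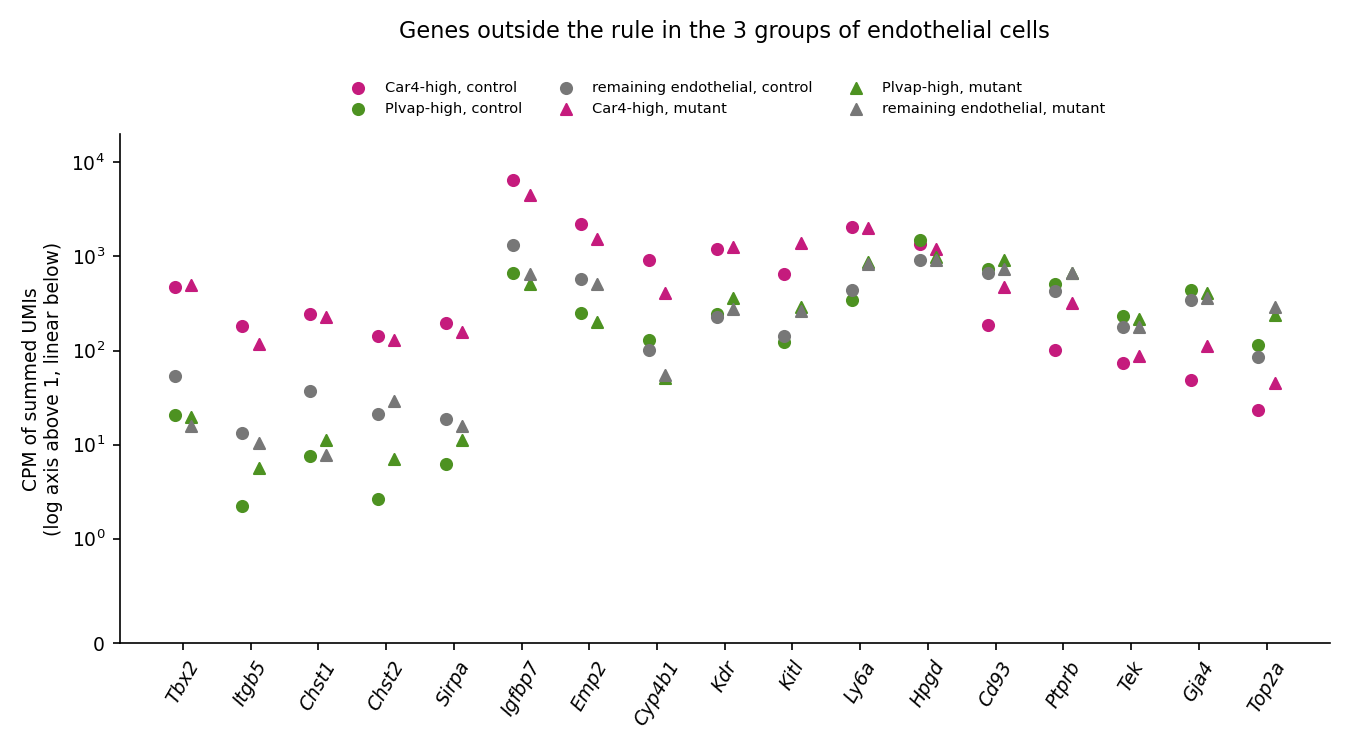
CPM of summed UMIs (y axis, log scale above 1 and linear below) of 17 genes that the rule did not read, in Car4-high, Plvap-high and remaining endothelial cells (colours) of the control (circles) and mutant (triangles) libraries, with 1 point per group and library. Tbx2 to Ly6a are higher in the Car4-high cells of both libraries, Hpgd is alike in the groups, and Cd93 to Top2a are lower.

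Between genotypes, Sparcl1, Ntrk2, Edn1 and Kitl were higher and Cyp4b1 and Rprml lower in mutant Car4-high cells, while Tbx2 and Kdr were close to equal. Of 5652 genes whose UMIs over the pair of libraries reached 20, 492 (8.7%) were at least 2-fold higher and 166 (2.94%) at least 2-fold lower in the mutant, 11.6% in all, and the median log2 ratio was 0.05. Without the barcode that stood apart 433 (7.78%) were higher and 167 (3%) lower of 5567. Of the 658, 135 also differed in the same direction, with at least 0.5 of the size, in both mesenchymal and immune cells, and were set apart as library-wide: 106 were higher and 29 lower. Many genes past 2-fold rested on few UMIs, since at least 50 UMIs left 153 higher and 43 lower.

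RNA of epithelial cells differed between the libraries inside the Car4-high cells as well. Sftpc, the surfactant protein C gene of alveolar type 2 (AT2) cells, had 2358 and 149 CPM, a ratio of mutant over control of 0.0631 (0.0485 to 0.0810). One control cell held 26.8% of the control UMIs. After thinning, 98.8% (93.4 to 100) of control and 26.6% (16.3 to 39.1) of mutant cells held a Sftpc UMI. All 12 listed AT2 genes were seen in control and 7 in mutant Car4-high cells, at 2844 and 268 CPM in sum, 3 to 340 UMIs per cell in the control and 0 to 7 in the mutant. Nkx2-1 itself had 7 UMIs in control, 5 of them in 1 cell, and none in mutant Car4-high cells, and Aqp5 had 9 and 1. The part of such RNA in other differences was not tested.

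The other marker lists were low. Of 11 immune genes only Cd3e was at 0 in both libraries, and the sum was 498 and 656 CPM, with 115 UMIs in 1 control and 196 in 1 mutant cell against medians of 1 and 0.5. Of 10 pericyte genes Pdgfrb, Cspg4, Kcnj8, Rgs5 and Trpc6 were at 0 in both, and the sum was 30.1 and 47.4 CPM. Of 10 lymphatic genes 6 were at 0 in both, Prox1 and Ccl21a among them, with sums of 222 and 237 CPM. The 12 AT1 genes summed to 359 and 332 CPM with 9 seen in each library, and the 8 airway genes to 389 and 63.2 CPM with 4 and 2 seen. The 12 mesenchymal genes summed to 368 and 722 CPM, with Pdgfra, Dcn and Lum at 0 in both and 109 UMIs in 1 mutant cell. The 16 venous genes summed to 354 and 530.2 CPM, and the 8 red cell and platelet genes to 23.2 and 13.5 CPM. The 17 arterial genes summed to 632 and 1381 CPM, with Gja5, Bmx, Dkk2, Cdh13 and Jag1 at 0 in the control, and 209 of the mutant UMIs were in 1 cell. Of 11 arterial genes tested, 8 were past 2-fold higher in the mutant, beside 8.7% over all genes. Without the barcode that stood apart it was only 1 of 10, Edn1, beside 7.78%.

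Of the 4 genes that chose the cells, Car4 and Apln were lower in the mutant Car4-high cells. Car4 had 2166 CPM in the control and 1338 in the mutant, a ratio of 0.618 (0.556 to 0.685). Apln had 644 and 442 CPM, a ratio of 0.687 (0.569 to 0.827). Ednrb had 422 and 347 CPM, a ratio of 0.824 (0.661 to 1.03), and Fibin 250.2 and 264 CPM, 1.06 (0.805 to 1.38). These 4 genes chose the cells in each library by a limit in raw UMIs, while the median depths of the chosen cells were 4674 and 5866 UMIs. The part of this choice in the ratios was not tested. In the cluster made without them the log2 ratio of Car4 was -0.78 and that of Apln -0.52, beside -0.69 and -0.54 by the rule. That cluster was still picked out by its median panel counts. Plvap was also lower, at 99.6 and 58.7 CPM, and Gpihbp1 higher at 262 and 345.

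Among the other aerocyte genes, 23 of 24 were tested. Of these, 1 was past 2-fold higher and 3 past 2-fold lower in the mutant, beside 8.7% higher and 2.94% lower over all genes. The median log2 ratio of the list was -0.14, beside 0.05 over all genes. Tbx2 had 473 and 492 CPM, a ratio of 1.04 (0.856 to 1.27), and Kdr 1.04 (0.924 to 1.18). Igfbp7, Emp2 and Pmp22, a myelin-related membrane protein gene, were lower by less than 2-fold, with ratios of 0.691 (0.652 to 0.732), 0.685 (0.620 to 0.757) and 0.682 (0.618 to 0.751). Cyp4b1, a cytochrome P450 gene, had 919.5 and 413 CPM, 0.449 (0.375 to 0.536), with a median of 4 UMIs per control and 2 per mutant cell. Rprml, a reprimo-like gene, had 46 UMIs over 32 control cells and 6 over 6 mutant cells, a ratio of 0.127 (0.0443 to 0.298). The Cdk inhibitor gene Cdkn2b had a ratio of 0.496 (0.305 to 0.788). It stood at 0.518 without the barcode that stood apart, which leaves 2 lower genes.

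In Plvap-high cells Cyp4b1 and Cdkn2b were past 2-fold lower as well, at 0.396 and 0.169. Rprml had 17 control and 1 mutant UMI there, under the 20 needed to be counted. Kitl, the 1 gene past 2-fold higher, had 284 control and 623 mutant UMIs, a median of 3 and 8 per cell, and 658 and 1405 CPM. Its ratio was 2.14 (1.85 to 2.47) in Car4-high, 2.35 in Plvap-high and 1.85 in mesenchymal cells, and 13.6 in epithelial cells. Apln and Ednrb had ratios above 1 in Plvap-high cells, 1.34 (1.0 to 1.79) and 1.48 (1.04 to 2.13), at 39.2 and 24.9 CPM in the control. Car4, Igfbp7, Emp2 and Pmp22 had ratios below 1 there as in Car4-high cells, at 0.746, 0.747, 0.797 and 0.665. The difference between the capillary types was not tested.

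**Figure D4:**
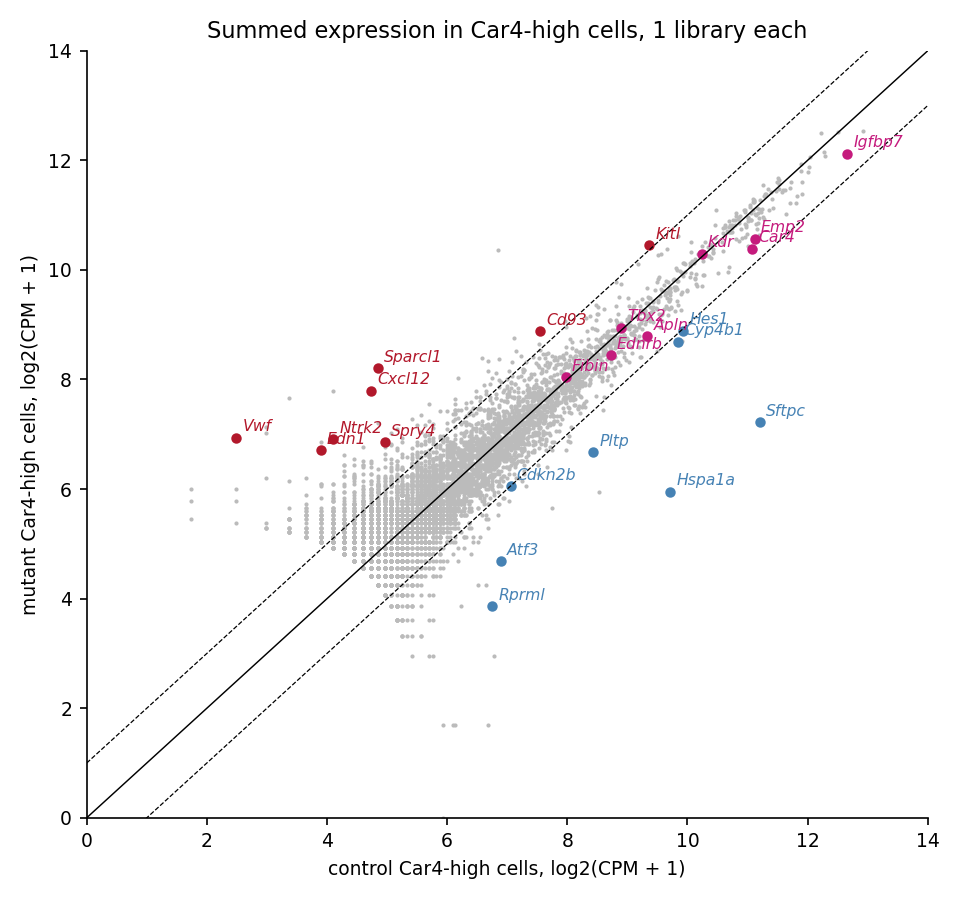
Each point is 1 of the 5652 genes with at least 20 UMIs, placed by log2(CPM + 1) of the summed UMIs of control (x axis) and mutant (y axis) Car4-high cells, with equality as a solid line and 2-fold as dashed lines. Tbx2 and Kdr lie on the line, Sparcl1, Ntrk2, Edn1 and Kitl above 2-fold, and Sftpc, Hspa1a, Rprml and Cyp4b1 below it, while the Vwf point comes from 1 barcode.

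Several genes that are more abundant in Plvap-high cells were higher in the mutant Car4-high cells. Of the 22 other general capillary genes 19 were tested, 5 were past 2-fold higher and none lower, beside 8.7% higher over all genes, with a median log2 ratio of 0.49 in Car4-high and 0.38 in Plvap-high cells. Without the barcode that stood apart it was 4: Cd93, the chemokine gene Cxcl12, the neurotrophin receptor gene Ntrk2 and the integrin gene Itga1. Cd93 had 185 and 472 CPM, a ratio of 2.54 (1.96 to 3.34), against 1.26 in Plvap-high cells. Cxcl12 had 11 UMIs over 6 control and 98 over 15 mutant cells, a ratio of 8.68 (4.64 to 18), or 6.20 without that barcode. Ptprb was at 3.17 (2.24 to 4.55), or 1.97 without it. Ly6a, the Sca-1 gene, was 0.972 (0.885 to 1.07) in Car4-high cells and 2.52 (2.31 to 2.74) in Plvap-high cells.

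Sparcl1, which encodes a secreted matrix protein, had the highest ratio among the genes with at least 30 UMIs and 100 CPM that were not set apart, once that barcode was left out (10.4). It had 12 UMIs in 7 of 82 control cells and 130 in 31 of 64 mutant cells, 27.8 and 293 CPM, a ratio of 10.6 (5.84 to 20.9). After thinning, 1.22% (0.0309 to 6.61) of control and 20.3% (11.3 to 32.2) of mutant cells held a UMI. In epithelial cells, with median depths of 8552.5 and 12536 UMIs, the thinned share was 0.879% and 0.389%. In mesenchymal cells it was 48.1% and 57.4%, at 424 and 588 CPM. In Plvap-high cells the level was above that of Car4-high cells in both libraries, 167 and 864 CPM, and the ratio was 5.16.

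Ntrk2, the receptor TrkB, had 7 UMIs in 4 control and 53 in 26 mutant cells, a ratio of 7.37 (3.34 to 19.2), beside 7.19 in Plvap-high cells. After thinning, 3.66% (0.761 to 10.3) of control and 18.8% (10.1 to 30.5) of mutant cells held a Ntrk2 UMI. In epithelial cells the share was 0% and 0.0972%, and in mesenchymal cells 1.33% and 2.68%. Bdnf, a ligand of this receptor, was found mainly in mesenchymal cells, at 123 and 69 CPM. The capillary gene Itga1 followed the same direction on few UMIs, 7 and 18.

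The endothelin gene Edn1 was highest in Plvap-high cells, while its receptor gene Ednrb was 1 of the genes that chose the Car4-high cells. Edn1, which encodes the peptide endothelin 1, had 6 UMIs in 5 control and 46 in 15 mutant Car4-high cells, a ratio of 7.47 (3.18 to 21.4). After thinning no control cell of 82 held an Edn1 UMI, and 10.9% (4.51 to 21.2) of mutant cells did. For the control, the floor of 3 cells is a share of 3.66%, and the exact upper limit is 4.40%. In epithelial cells it was 0.769% and 5.83%, the latter within the interval of the mutant Car4-high cells, and in mesenchymal cells 0.191% and 0.206%. Plvap-high cells held more, 143 and 310.5 CPM, a ratio of 2.17, and epithelial cells 5.14 and 38.8 CPM. The receptor gene Ednrb was highest in Car4-high cells among the 6 groups of cells compared, but the rule read Ednrb, so this describes the choice. Ednra, which the rule did not read, had no UMI in Car4-high cells and 104 and 177 CPM in mesenchymal cells.

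Car4-high cells had little Vegfa and much of its receptor genes. The ligand gene Vegfa had 194 CPM in control and 94.5 in mutant epithelial cells, 125 and 105 in remaining endothelial cells, 62.7 and 62.2 in Plvap-high cells, and 11.6 and 27.1 (5 and 12 UMIs) in Car4-high cells. The receptor genes Kdr and Flt1 had 1207 and 361 CPM in control and 1259 and 582 in mutant Car4-high cells, and the co-receptor gene Nrp1 1295 and 1214. Nrp1 was also seen in epithelial cells, at 195 and 43.5 CPM. In Plvap-high cells Kdr had 245 and 366 CPM, a ratio of 1.49 (1.34 to 1.67). Of 26 listed genes of the pathway 14 were tested in Car4-high cells, 2 were past 2-fold higher, Spry4 and Adamts1, and none lower, beside 8.7% higher over all genes, with a median log2 ratio of 0.25. Spry4, an inhibitor of receptor tyrosine kinase signals, had 13 UMIs in 12 control and 51 in 28 mutant cells, a ratio of 3.82 (2.05 to 7.66), beside 2.71 in Plvap-high and 2.11 in mesenchymal cells. The protease gene Adamts1 stood at 1.42 without the barcode that stood apart.

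Some genes of the stress and immediate-early response were lower in the mutant. Of 20 listed 19 were tested, none was past 2-fold higher and 5 were lower, Fosb, Atf3, Zfp36, Hspa1a and Hspa1b (4 of 18, without Fosb, when the barcode that stood apart was left out), beside 2.94% lower over all genes, with a median log2 ratio of -0.63. The heat shock gene Hspa1a had 361 UMIs in 37 control and 27 in 8 mutant cells, a ratio of 0.0728 (0.0473 to 0.108), and was lower in Plvap-high (0.259), mesenchymal (0.197) and immune cells (0.207) as well. In Plvap-high cells the median of the list was -0.73. Such genes are known to respond to the dissociation of tissue, and the handling of the libraries cannot be told apart from their genotype.

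The counts for other gene lists stand beside the same 8.7% higher and 2.94% lower over all genes. Of 28 BMP and TGF-beta genes 19 were tested and 3 were higher, all of them receptors: Bmpr2, with 248 and 532 CPM and a ratio of 2.15 (1.70 to 2.73), Tgfbr1 and Tgfbr2. Bmpr2 was also higher in mesenchymal (2.07) and epithelial cells (1.92), and stood at 1.06 in immune cells. Of 9 Notch genes tested, the effector gene Hes1 was lower at 0.487 (0.411 to 0.576), as in mesenchymal cells (0.510), and was set apart as library-wide. Rbpj and Hey1 were past 2-fold higher, and Hey1 was at 1.70 without the barcode that stood apart. Of 35 transcription factor genes tested, 2 were past 2-fold higher, Tal1 and Foxo1, a smaller share than over all genes, and none lower, with a median log2 ratio of 0.38. Pltp, the phospholipid transfer protein gene, was at 0.296 (0.207 to 0.416) and the fractalkine gene Cx3cl1 at 0.325 (0.154 to 0.638). Car2, a soluble carbonic anhydrase gene, was at 0.456 (0.322 to 0.640), and at 0.457 in Plvap-high cells. Of 17 basement membrane and matrix genes tested 3 were past 2-fold higher, Sparcl1, Itga1 and the perlecan gene Hspg2, with a median log2 ratio of 0.59 in Car4-high and 0.39 in Plvap-high cells. Of 18 junction genes tested 3 were past 2-fold higher, Tjp1, Jam2 and Gja4, and of 18 guidance genes 4 were higher and 2 lower, the latter Sema4c and Epha2. Without the barcode that stood apart Gja4 was at 1.89, the junction gene Ocln was lower, and 1 guidance gene, Epha4, was higher. Of 20 antigen presentation and interferon genes tested 2 were higher and 2 lower, with a median log2 ratio of -0.17. None of 8 caveola genes tested was past 2-fold either way, and none of 6 lipid uptake genes.

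Some of these differences were smaller, and others were not, among Car4-high cells without any Plvap panel UMI. These were 37 control and 16 mutant cells with 148089 and 83723 UMIs, a choice made after the values were seen. Igfbp7 then had a ratio of 1.05 (0.954 to 1.16), Emp2 0.867 (0.730 to 1.03), Pmp22 0.914 (0.776 to 1.07) and Cdkn2b 0.884 (0.403 to 1.84). Car4 was at 0.819 (0.685 to 0.976) and Apln at 0.801 (0.545 to 1.16). Cd93 was at 0.708 (0.162 to 2.45) and Ptprb at 1.06 (0.165 to 5.45), on 10 and 4 and on 5 and 3 UMIs. Both intervals lie on either side of 1, and that of Ptprb includes its ratio over all Car4-high cells.

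Kitl in the same cells had a ratio of 2.66 (2.07 to 3.44), Spry4 3.54 (1.10 to 13.2) and Bmpr2 2.50 (1.58 to 4.0). Cyp4b1 was at 0.528 (0.378 to 0.725), Hes1 at 0.340 (0.212 to 0.525), Pltp at 0.116 (0.0306 to 0.312) and Hspa1a at 0.0354 (0.00423 to 0.131). Sparcl1 had 1 control and 8 mutant UMIs, a ratio of 14.2 (1.90 to 628), and Ntrk2 0 and 4, with a lower limit of 1.17. Both rest on few UMIs. Edn1 had 0 and 0 and Cxcl12 0 and 0, too few to place them. The median log2 ratio of the other aerocyte genes was 0.04 over 22 tested, with Kitl and Clic5 past 2-fold higher and Rprml lower. Of the other general capillary genes 8 were tested and none was past 2-fold either way, with a median of 0.36. Of 2093 genes tested there, 123 (5.88%) were past 2-fold higher and 135 (6.45%) lower. Whether the number of Plvap panel UMIs or the depth of these cells moved the ratios was not tested.

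**Figure D5:**
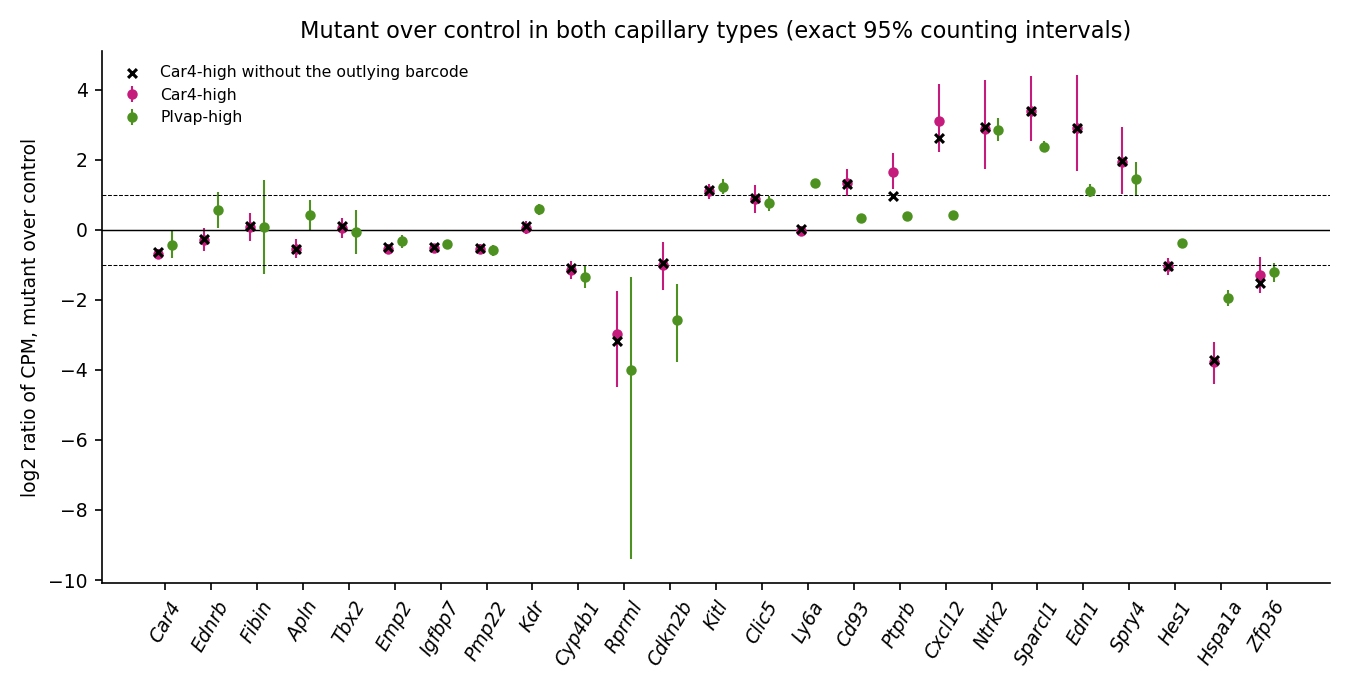
Log2 ratios of CPM, mutant over control (y axis), for 25 genes in Car4-high and Plvap-high cells, with exact 95% counting intervals as bars, crosses for Car4-high cells without the barcode that stood apart, and dashed lines at 2-fold. Kitl, Ntrk2, Sparcl1 and Cyp4b1 are past 2-fold in both types, while Car4, Emp2, Igfbp7 and Pmp22 lie between 1 and 2-fold lower, and Cd93 and Cxcl12 are past 2-fold in Car4-high and under it in Plvap-high cells, a difference that was not tested.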

How the data were processed

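UMI counts per gene and barcode were deposited by the authors for 27998 genes, 1 matrix per library, and are raw counts. The submitters' processing notes list mm10, Seurat and Cell Ranger without versions or filters. Library totals were 29862980 UMIs for the control and 47271104 for the mutant, and no barcode was below 2278 and 3874, respectively.

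The members and the gene lists were chosen with earlier results of these data known. The 31 lists held the other genes of each cell type and pathway. Counts were summed per library and cell group and scaled to CPM. Ratios have exact conditional binomial intervals, shares Clopper-Pearson and CPM Poisson intervals, all at 95%, with no test because each group was 1 library. A count of 0 was set to the floor of 3 counts, and no ratio was taken where the other count was 3 or fewer. A gene counted as past 2-fold with at least 20 UMIs over both libraries, or in each library against Plvap-high cells. Shares of cells used cells thinned to 2000 UMIs, which left out no cell. Epithelial, mesenchymal and immune cells had at least 2 UMIs of Epcam, Col1a2 or Ptprc, none of the other 2 genes, and under 8 endothelial UMIs.

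Named genes were, per list, the gene with the highest CPM and the 2 with the largest ratios, the 10 largest and 10 smallest ratios over all genes with at least 30 UMIs and 100 CPM once library-wide genes were set apart (again without the barcode that stood apart), the 15 most higher and 10 most lower genes against Plvap-high cells with at least 100 CPM, the panel genes, Nkx2-1, Aqp5 and Vegfa, and any gene of both capillary lists. Genes outside this rule, such as Tbx3, Meox1, Prdm1, Nr2f2, Gata6, Foxp1, Bdnf, Ednra, Flt1, Tgfbr2, Fosb, Tjp1, Ocln, Sema4c, Epha2 and S100a8, and the sequences shown were chosen after values were seen. Clusters used 1500 variable genes without panel and cell cycle genes, 20 components, 20 neighbours and Leiden resolution 1. Doublets were scored per library with 2 simulated pairs per cell and 60 neighbours, marking 137 control and 156 mutant cells at 0.8% per 1000 cells. They were kept, with their removal as an alternative. Afdn, Cavin4 and Foxf1a were absent from the matrix under these symbols.

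The ratio code was tested on simulated data with known folds. Python 3.11.15, numpy 2.4.6, scipy 1.17.1, pandas 2.3.3, scikit-learn 1.9.0, leidenalg 0.10.2, R 4.3.3 and edgeR 4.0.16, the last for TMM factors only, were used. Promoter windows came from RefSeq on GRCm38.p6, which held all 4 panel genes, and gene positions from GENCODE M21 on GRCm38, the assembly of mm10.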

Additional observations from a re-analysis of the deposited data

How the results depend on the processing

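The share of Car4-high cells among endothelial cells stayed within its main interval in 11 of 12 alternatives in each library and was 7.48% in the control and 7.71% in the mutant with Car4 left out of the panel. Without thinning, 25.6% of control and 34.4% of mutant Car4-high cells counted as cycling. The count of genes past 2-fold between genotypes was 1386 higher and 1007 lower with every detected gene tested, 153 and 43 from 50 UMIs, and 123 higher in cells without Plvap panel UMIs, where fewer genes had enough UMIs. The share of these genes that was higher was 74.8%, 57.9% with every detected gene and 47.7% without Plvap panel UMIs. Against Plvap-high cells, 663 genes were higher from 1 UMI per library and 252 lower from 50. The log2 ratio of Eln turned from 1.25 to -0.070 in cells with under 3 G2 and M phase UMIs, -0.25 without the barcode that stood apart, -0.11 in members of the cluster made without panel genes and -0.50 without Plvap panel UMIs, and that of Cd52 from 1.59 to -0.32 with no UMI of another lineage. The cause was not tested. Leaving out the barcode, the cluster restriction and the restriction to cells without Plvap panel UMIs were chosen after seeing the data. Median scaling and TMM moved the median of all genes by under 0.1 on the log2 scale. No paired analysis was possible because each genotype had 1 library and the labels give no replicate numbers. Depth limits genes with few UMIs: 20 UMIs over both libraries allow wide ratios.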
